A study of Mus musculus with 13 samples.

Results

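The 10 dermal transcription factors Sox2, Sox18, Foxd1, Twist1, Twist2, En1, Tbx15, Tbx18, Trps1 and Alx4 were followed through embryonic mouse back skin by single-cell RNA sequencing. They were taken by symbol from the 27998 genes of the count matrices, and each symbol matched 1 gene. Whole back skin was collected from C57BL/6 embryos at E14.5 and E16.5, with 2 wild-type (WT) and 2 Grhl3-/- (KO) libraries at each age. At each age the WT and KO embryos were littermates from the same pregnancy, and per the study's methods each pair held 1 male and 1 female. Grhl3-/- embryos lack Grhl3, a transcription factor of the surface epidermis, in every cell from conception, and all of them had spina bifida. The skin was cut around the midline between the forelimbs, away from the open spine, and was dissociated with Dispase and Accutase and depleted of dead cells. P0 samples were epidermis only, with 2 WT and 2 KO libraries and 1 further WT library made with an older chemistry.

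Dermal fibroblasts of the embryonic back come largely from the dermomyotome of the somites. Under placodes in the overlying epidermis some of them gather into dermal condensates, which later become the dermal papilla of the hair follicle. Each of the 10 factors has a known place in this lineage or beside it. Twist1 and Twist2 are basic helix-loop-helix factors of mesenchyme, and Twist2, also called Dermo1, is broadly made in dermis. En1 is an engrailed homeobox factor that marks a fibroblast lineage of the back. Tbx15 and Tbx18 are T-box factors of dorsal and condensate mesenchyme. Sox2 and Sox18 are SRY-box factors of the condensate and papilla, and they also work in neural and Merkel cells (Sox2) and in blood and lymphatic vessels (Sox18). Foxd1 is a forkhead factor of the condensate, Trps1 is a GATA-type zinc finger repressor of the condensate and the follicle, and Alx4 is a paired-type homeobox factor of mesenchyme.

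The 8 embryonic libraries held 57270821 to 79416872 UMIs (unique molecules) each as deposited. After the study's cell filter, 24357 cells remained at E14.5 and 27298 at E16.5, with median depths of 7473 to 8902 UMIs per cell. Cells were clustered at each age without the 10 factors and without 72 other dermal transcription factors. Clusters were then named by fixed marker lists, so every class is "-like". Fibroblast-like cells numbered 2245 to 3834 per library, and condensate-like cells 112 to 191 at E14.5 and 403 to 637 at E16.5. Of the 12 condensate markers, 9 at E14.5 and 11 at E16.5 were higher in the condensate-like than in the fibroblast-like cells in every library without overlap. The same markers had named the class, so this count describes it only. Tgfb2 went the other way, at 0 to 4.49 CPM against 15.3 to 51.9 CPM at E14.5 and 5.04 to 10.9 CPM against 16.2 to 23.8 CPM at E16.5. Alpl and Inhba overlapped at E14.5. A group of 379 to 620 cells per library was led by Stmn2 and Crabp1. It scored highest for fibroblast markers, and it was kept apart under the names of those genes. Barcodes shared between 2 libraries numbered 32 to 96, at most 1.57% of the smaller library. Levels are given in CPM, which scales the UMIs of a gene to all UMIs of the same class in the same library. Grhl3 itself was lower in interfollicular epidermis-like (IFE-like) cells of KO libraries at both ages, at 35.7 to 36.4 CPM against 47.6 to 60.02 CPM in WT at E14.5 and at 7.95 to 12.7 CPM against 19.0 to 20.8 CPM in WT at E16.5. The study's allele was not located on the transcript here, so UMIs at the 3′ end may remain in KO.

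A pair of E14.5 libraries stood apart in cell makeup. WT replicate 1 held 287 cells led by Fabp7 and Olig1, genes of neural progenitors, against 8 to 20 in the other 3 E14.5 libraries. In KO replicate 2, clusters led by C1qtnf3 and Tnmd (tendon and fascia genes) or by Adh1 made up 2.2% and 2.1% of the fibroblast-like cells, against 7.9% to 17.1% and 7.1% to 8.5% in the other 3. A Thbs4-led cluster, with Tnmd among its leading genes, made up 4.21% to 5.66% in all 4. These 3 clusters are called the Tnmd and Adh1-led clusters where they are left out together. For the 10 factors, results that rest on these libraries are given with and without them. For the 72 other dermal transcription factors they are not.

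The bases before the RefSeq start are shown for Sox2 and Foxd1, which had the highest median ratios of condensate-like to fibroblast-like cells at both ages among the factors for which RefSeq sequence was at hand. Sox2 is a single-exon gene at chr3:34650405-34652461 on the plus strand of GRCm38 (GENCODE M21), inside the long noncoding Sox2ot on the same strand. Foxd1 lies at chr13:98354242-98359305 on the plus strand. The 250 bases upstream of the RefSeq start are printed 5′ to 3′ (GRCm38.p6, Sox2 at chr3:34649745-34649994 and Foxd1 at chr13:98353995-98354244, both plus strand), with capitals marking a match to the core TCF/LEF motif, CTTTGA or CTTTGT on either strand. The RefSeq start of Sox2 lies upstream of its GENCODE start, and distances are counted from the RefSeq start. TCF and LEF proteins are the DNA-binding partners of beta-catenin in Wnt signalling.
Sox2: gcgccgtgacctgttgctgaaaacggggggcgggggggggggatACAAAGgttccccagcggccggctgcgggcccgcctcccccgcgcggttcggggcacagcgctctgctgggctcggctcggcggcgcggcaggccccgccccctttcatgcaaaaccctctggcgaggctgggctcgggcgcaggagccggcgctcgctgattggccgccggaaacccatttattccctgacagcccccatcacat
Foxd1: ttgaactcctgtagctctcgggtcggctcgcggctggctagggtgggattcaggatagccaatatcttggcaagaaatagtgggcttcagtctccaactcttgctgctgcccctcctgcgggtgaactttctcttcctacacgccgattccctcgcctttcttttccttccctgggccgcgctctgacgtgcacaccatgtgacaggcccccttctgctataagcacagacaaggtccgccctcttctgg
The Sox2 window held 1 match, 206 bases before the RefSeq start, and the Foxd1 window held none. Of the 6 factors with a RefSeq window, Sox2 was the one with a match, and 27.6% of all 32851 upstream windows of this length held one. These matches describe the letters of the windows only.

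Of the other factors, Sox18 lies on the minus strand at chr2:181669836-181671640 and Alx4 on the plus strand of the same chromosome at chr2:93642384-93681339, where the antisense gene Ext2 overlaps it outside the exons. Twist1 lies at chr12:33957671-33959829, and Twist2 at chr1:91801461-91848028, both on the plus strand. The antisense gene Gm29100, which is also among the genes of the count matrices, has 1 exon that overlaps exon sequence of Twist2. En1 shares that chromosome at chr1:120602418-120607992 on the plus strand. Tbx15 lies at chr3:99240381-99354259 on the plus strand, Tbx18 at chr9:87702800-87731260 on the minus strand, and Trps1 at chr15:50654752-50890463 on the minus strand.

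The ratio of condensate-like to fibroblast-like cells had its highest medians for Sox2, Sox18 and Foxd1 at E14.5 and for Sox2, Sox18 and Alx4 at E16.5. Where the fibroblast-like level is close to that of free RNA, as for Sox2, such a ratio is a lower limit. At E14.5 Sox2 was at 88.6 and 81.9 CPM in condensate-like cells of WT replicates 1 and 2 and at 54.6 and 79.5 CPM in KO. In fibroblast-like cells it was at 2.01 and 0.398 CPM in WT and 0.518 and 0.413 CPM in KO. The 2 classes did not overlap, and the within-library ratio was 44.2 to 206-fold with a median of 149 (lower limits). At E16.5 the condensate-like levels of Sox2 were 80.9 and 85.6 CPM in WT and 88.7 and 75.1 CPM in KO, and the ratio to fibroblast-like cells was 51.3 to 124-fold, again as lower limits. Over both ages and genotypes Sox2 in this class lay within 54.6 to 88.7 CPM.

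Foxd1 was at 154 and 114 CPM in condensate-like cells of the E14.5 WT libraries and at 102.3 and 126 CPM in KO, and at 84.3 and 68.6 CPM in WT and 79.5 and 95.3 CPM in KO at E16.5. Every E14.5 library was above every E16.5 library. The ratio to fibroblast-like cells was 19.9 to 65.9-fold at E14.5 and 11.3 to 14.3-fold at E16.5. Every other cell class stayed at 8.84 CPM or less in each library.

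Sox18 was low in condensate-like cells at E14.5, at 51.6 and 14.46 CPM in WT and 47.7 and 44.9 CPM in KO. At E16.5 it reached 321 and 356 CPM in WT and 260 and 297 CPM in KO. The lowest value, in E14.5 WT replicate 2, rested on 112 cells, and the same library was also the lowest for Sox18 in endothelial-like cells (16.6 CPM) and in lymphatic endothelial-like cells (13.3 CPM). The ratio of condensate-like to fibroblast-like cells was 48.3 to 101-fold at E14.5 and 34.6 to 43.4-fold at E16.5.

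Alx4 was low in condensate-like cells at E14.5 and higher at E16.5. At E14.5 it had 0, 4, 3 and 3 UMIs in the KO replicate 1, KO replicate 2, WT replicate 1 and WT replicate 2 classes, which is 0, 2.76, 3.37 and 3.61 CPM, and the 0 allows a level of up to 3.41 CPM. In the 3 libraries with a UMI the ratio to fibroblast-like cells was 2.62 to 6.07-fold, on these few counts. At E16.5 it was at 37.4 and 36.2 CPM in WT and 35.3 and 31.4 CPM in KO. Fibroblast-like cells stayed between 0.555 and 2.05 CPM at both ages, and the E16.5 ratio of the 2 classes was 17.7 to 37.0-fold. Their E16.5 level overlapped those of erythroid-like cells (0.608 to 1.62 CPM) and hair follicle-like cells (0 to 1.62 CPM). It lay above that of IFE-like cells (0 to 0.588 CPM), and the part of free RNA in it was not tested.

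Trps1, Tbx18 and Twist2 were shared by both classes but higher in the condensate-like class taken as a whole. The ratio of condensate-like to fibroblast-like Trps1 was 5.73 to 10.0-fold at E14.5 and 4.03 to 4.36-fold at E16.5. For Tbx18 it went from 3.75 to 6.75-fold at E14.5 to 1.12 to 1.72-fold at E16.5, and for Twist2 from 1.86 to 2.79-fold to 1.25 to 1.69-fold. At E16.5 some fibroblast-like clusters overlapped the condensate-like class in Twist2, among them the Mxd3-led cluster at 1186 to 1342 CPM. The other 3 factors belonged to the dermis at large. Tbx15 differed little between the classes, at 0.79 to 1.39-fold and 1.14 to 1.46-fold. Twist1 was lower in condensate-like cells in each library, at 0.68 to 0.93-fold and 0.77 to 0.86-fold, and En1 was lower still, at 0.26 to 0.52-fold and 0.30 to 0.52-fold.

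Counted per library, 6 of the 10 factors were higher in condensate-like cells in all 4 E14.5 libraries (Sox2, Sox18, Foxd1, Twist2, Tbx18 and Trps1), against 19% of all genes compared. At E16.5 it was 8, with Tbx15 and Alx4 added, against 39%. Twist1 and En1 were lower in all 4 libraries at both ages, against 31.9% and 28% of genes. Without E14.5 KO replicate 1, where Alx4 had no UMI, 7 factors were higher at E14.5. All 10 factors had been proposed as dermal factors and some are known condensate genes, so these counts describe and do not test.

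**Figure D1:**
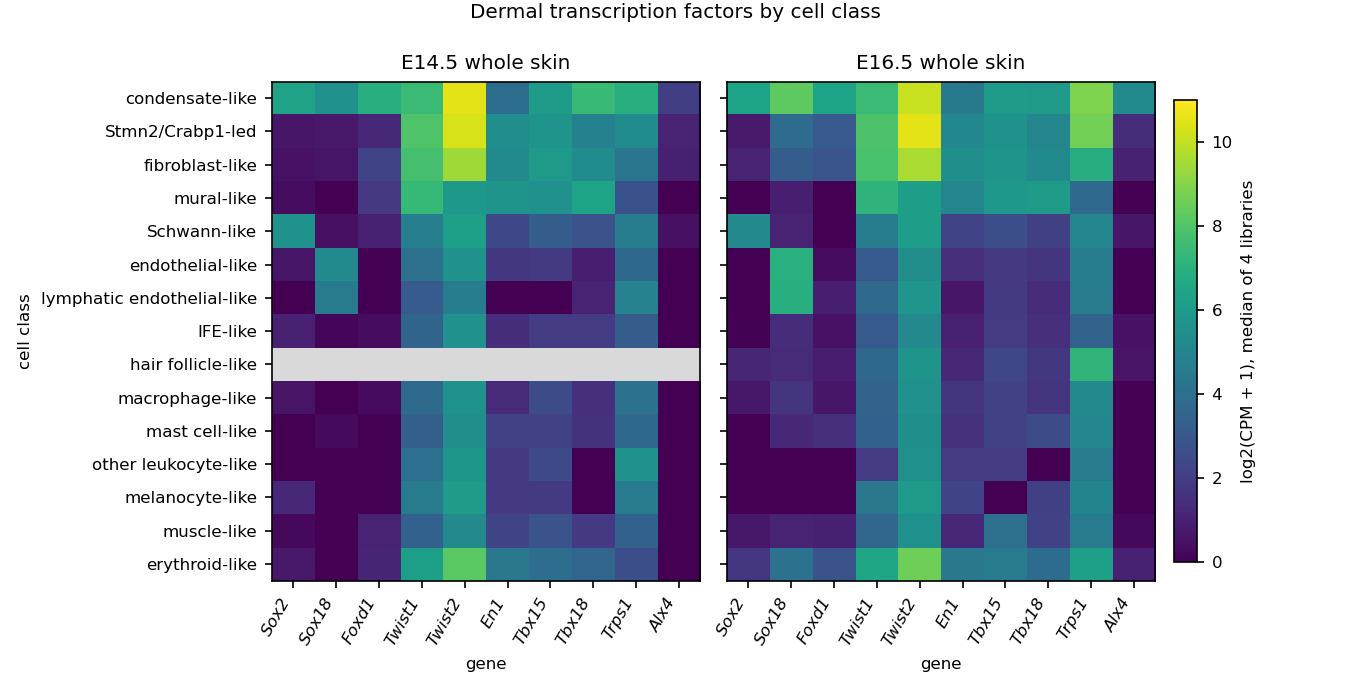
Level of the 10 factors in each cell class at E14.5 and E16.5, as the median over 4 libraries (2 WT and 2 KO) of log2(CPM + 1); classes without enough cells are grey. Brighter colours are higher levels. Sox2, Sox18, Foxd1 and Alx4 are brightest in the condensate-like class among the dermal classes, and Twist1, Twist2, En1 and Tbx15 extend over all of them.

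Ordered over all classes, each factor had its own set of neighbours. Sox2 was highest in the few Fabp7 and Olig1-led cells at E14.5 (117 to 435 CPM) and in Merkel-like cells at E16.5 (375 to 596 CPM in 8 to 13 cells a library). Condensate-like cells came next, and Schwann-like cells followed at 42.3 to 57.0 CPM at E14.5 and 30.7 to 42.8 CPM at E16.5. The Schwann-like range touched the condensate-like range at E14.5, where KO replicate 1 stood at 54.6 CPM, and lay below it at E16.5. Sox18 was next highest in endothelial-like cells, with 51.4 and 16.6 CPM in WT and 30.3 and 45.7 CPM in KO at E14.5, which overlapped the condensate-like range. At E16.5 endothelial-like cells were at 105 to 140 CPM and lymphatic endothelial-like cells at 107 to 145 CPM, both below every condensate-like value.

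Tbx18 was second in mural-like cells (pericytes and smooth muscle), at 68.1 to 88.7 CPM at E14.5, below the condensate-like 156 to 273 CPM. At E16.5 the mural-like values of 58.0 to 66.5 CPM overlapped the condensate-like 41.8 to 66.0 CPM. En1 was highest in mural-like cells at E14.5 (45.8 to 53.7 CPM), in a range that overlapped fibroblast-like cells (32.5 to 54.3 CPM), and at E16.5 fibroblast-like cells led at 42.8 to 44.6 CPM. Tbx15 had no clear leader. Its ranges in condensate-like, fibroblast-like, Stmn2 and Crabp1-led and mural-like cells overlapped at E14.5, and at E16.5 condensate-like (53.6 to 77.1 CPM) and mural-like cells (54.7 to 71.1 CPM) lay above fibroblast-like cells (47.1 to 52.6 CPM).

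Twist1 was highest in the Stmn2 and Crabp1-led cells (237 to 270 CPM at E14.5, 217 to 260 CPM at E16.5), and this overlapped the fibroblast-like range at both ages. Twist2 in Stmn2 and Crabp1-led cells, at 1144 to 1407 CPM, overlapped the condensate-like 1314 to 1625 CPM at E14.5. At E16.5 these cells led at 1471 to 1565 CPM, above the condensate-like 1004 to 1299 CPM and the fibroblast-like 735 to 835 CPM. Trps1 was highest in condensate-like cells at both ages, and at E16.5 the Stmn2 and Crabp1-led cells followed at 352 to 424 CPM and hair follicle-like keratinocytes at 120 to 170 CPM. In the Stmn2 and Crabp1-led cells Sox2 stayed at 3.88 CPM or less and Alx4 at 1.94 CPM or less.

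A low level in a class far from the dermis need not be expression. Droplets hold free RNA, and Twist2 was at 27.9 to 55.4 CPM in IFE-like cells at E14.5 and 24.1 to 54.4 CPM at E16.5, and at 202 to 404 CPM and 347 to 401 CPM in erythroid-like cells, whose summed fibroblast markers reached 5159 to 18098 CPM. At a common depth of 3000 UMIs per cell, a median of 10.5% of IFE-like cells had a Twist2 UMI at E14.5, and 8.47% of mast cell-like cells. The share in fibroblast-like cells was 73.1% and in condensate-like cells 93.6% (medians of 4 libraries). For Twist1 the IFE-like share was 3.48%, against 43.9% in fibroblast-like cells. For Sox2 it was 0.165%, close to the 0.157% of fibroblast-like cells, so that Sox2 in fibroblast-like cells could not be told from background at this depth.

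**Figure D2:**
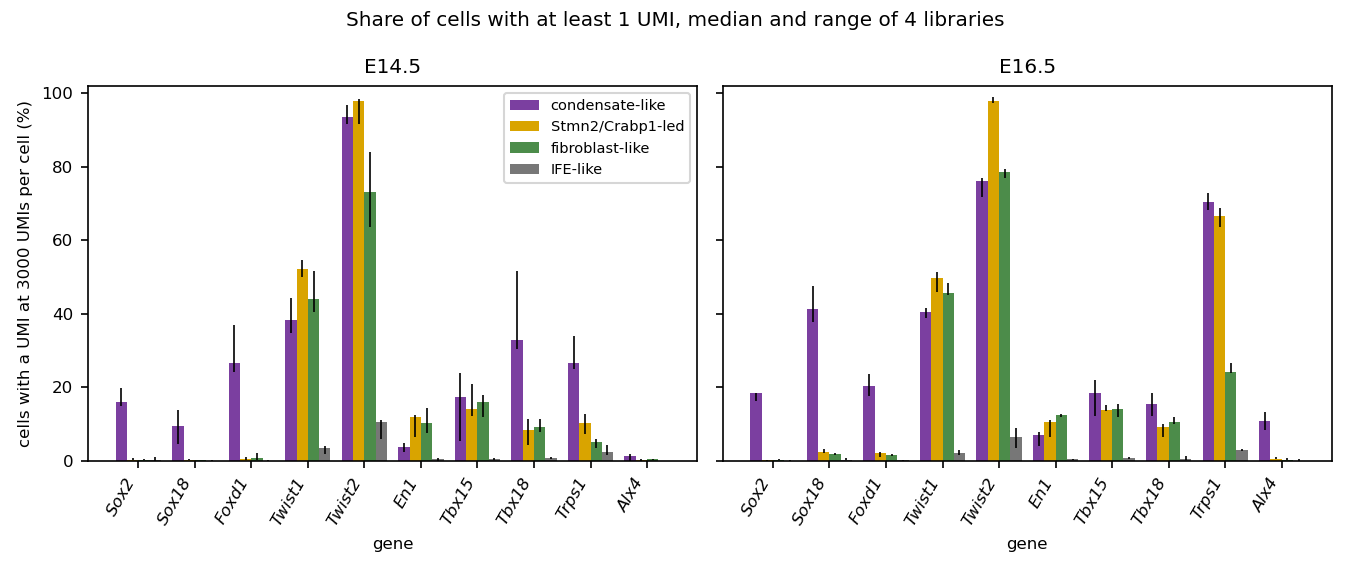
Share of cells (%) with at least 1 UMI of each factor after every cell was thinned to 3000 UMIs, at E14.5 and E16.5, as the median and range of 4 libraries in 4 classes. Sox18, Alx4 and Trps1 have higher shares at E16.5 than at E14.5 in condensate-like cells, and IFE-like cells are shown as a class outside the dermis.

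The shares of cells gave the same picture within the condensate. Sox2 was seen in 14.8% to 19.6% of condensate-like cells at E14.5 and 16.1% to 18.5% at E16.5 (unthinned medians 28% and 27.2%). Sox18 was seen in 4.46% to 13.8% and then 37.9% to 47.5% (unthinned 18.6% and 51.1%), with no overlap between the ages. Trps1 went from 25% to 33.8% of cells up to 68.2% to 73% (unthinned 53.6% and 85.4%), and Alx4 from 0% to 1.79% up to 8.29% to 13.3% (unthinned 2.2% and 16.7%). Tbx18 moved the other way, from 30.4% to 51.5% of cells down to 12.2% to 18.5% (unthinned 53.8% and 25.7%), and Foxd1 from 24.1% to 36.9% down to 17.6% to 23.5% (unthinned 44.8% and 33%).

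At E16.5 the condensate-like class was made of a pair of clusters that differed in these factors. One, of 1295 cells, was led by Bmp4 and Edn3. The other, of 657 cells, was led by Hes5 and Bmp3 and made up 30.2% to 37.3% of the class in each library. Sox2 was at 29.99 and 29.0 CPM in WT and 28.01 and 19.95 CPM in KO in the Bmp4 and Edn3-led cluster, and at 189 and 198 CPM in WT and 242 and 216 CPM in KO in the Hes5 and Bmp3-led cluster. Sox18 was at 169 to 248 CPM in the first and 490 to 569 CPM in the second, and Alx4 at 10.2 to 18.1 CPM and 77.0 to 87.5 CPM.

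Twist2 divided the opposite way. It was at 1372 to 1722 CPM in the Bmp4 and Edn3-led cluster and at 194 to 229 CPM in the Hes5 and Bmp3-led cluster, which is below the fibroblast-like level. Trps1 (522 and 350 CPM over all cells of each cluster), Tbx18 (62.0 and 45.5 CPM), Twist1 (169 and 216 CPM) and Foxd1 (84.9 and 75.7 CPM) differed less. The 10 factors took no part in forming the clusters, but other genes of the same cells did, so these differences are descriptions without a test. Sox2 and Sox18 were among the leading genes of the Hes5 and Bmp3-led cluster.

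Detection of Sox2 and Sox18 in the same single cells was set out per library. At E16.5 and 3000 UMIs per cell, Sox18 was detected in 71.4% and 69.5% of the Sox2-positive condensate-like cells of WT and in 63.9% and 62.9% in KO. Among Sox2-negative condensate-like cells it was detected in 36.2% and 42.5% in WT and in 32.1% and 35.4% in KO. These shares pool the Bmp4 and Edn3-led with the Hes5 and Bmp3-led cluster, and both genes were higher in the latter. Shares within each cluster are not given, so the part of cluster makeup was not tested. At E14.5 the shares among Sox2-positive cells were 28.6% and 4.55% in WT and 11.1% and 27.6% in KO, against 11.01% and 4.44% in WT and 7.69% and 7.59% in KO among Sox2-negative cells. They rested on 18 to 29 Sox2-positive cells a library and were close in WT replicate 2. The mean number of the 10 factors detected per condensate-like cell was 2.61 to 2.87 at E14.5 and 3.09 to 3.21 at E16.5, against 1.42 to 1.83 and 1.87 to 1.94 in fibroblast-like cells and 0.20 or less in IFE-like cells.

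**Figure D3:**
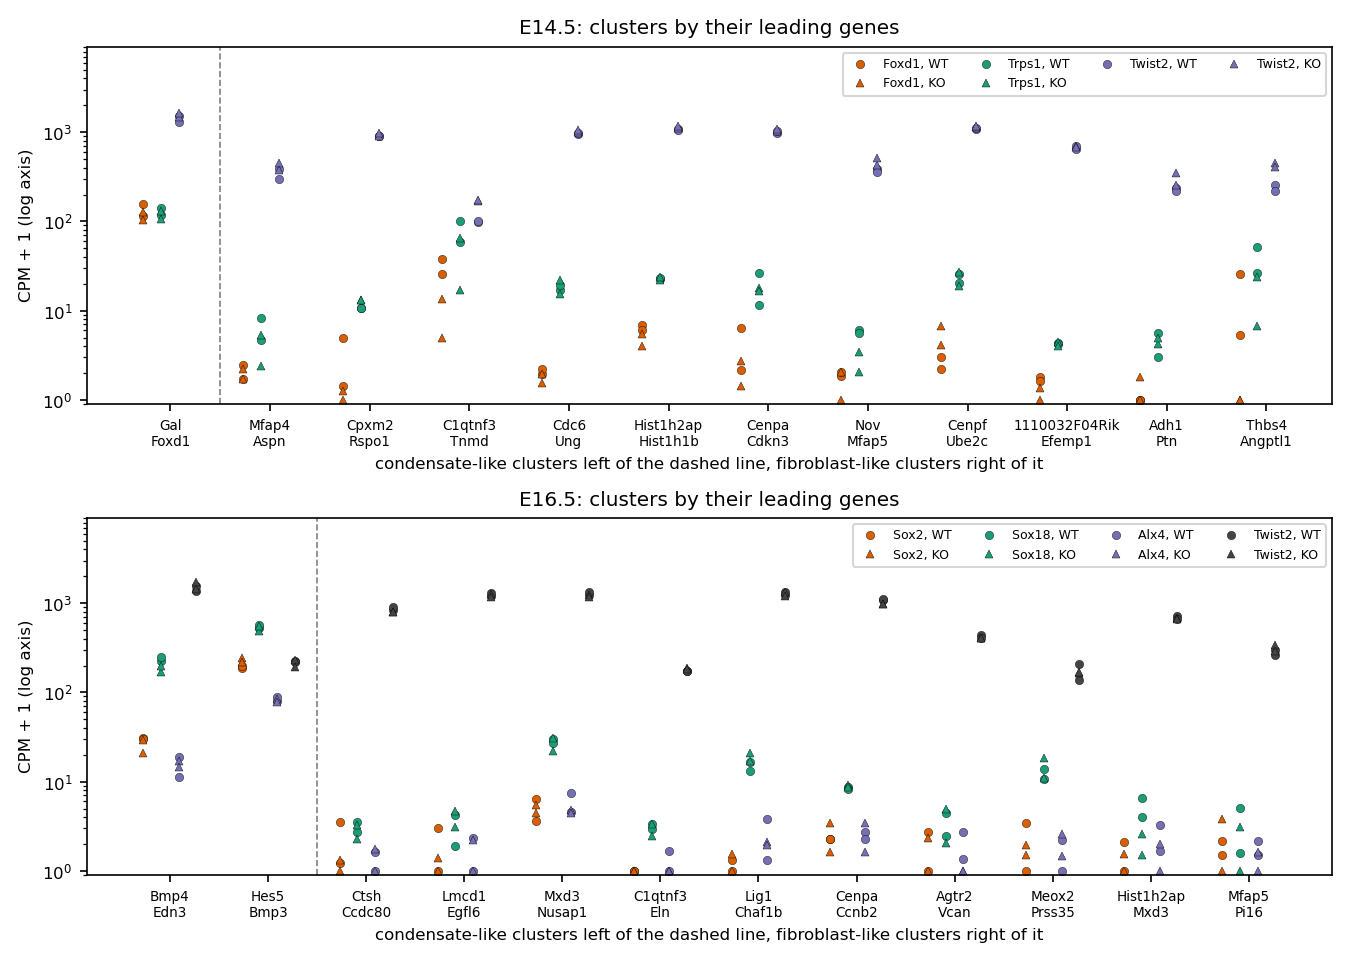
Level (CPM + 1, log axis) per library in each fibroblast-like and condensate-like cluster, for Foxd1, Trps1 and Twist2 at E14.5 and for Sox2, Sox18, Alx4 and Twist2 at E16.5. At E16.5 the Hes5 and Bmp3-led cluster is high for Sox2, Sox18 and Alx4 and low for Twist2.

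The comparison of ages set WT E16.5 against WT E14.5 in edgeR's quasi-likelihood test on UMIs summed per library, with Benjamini-Hochberg adjustment over all genes tested and a threshold of 0.05. Log2 fold changes are given with their standard errors (SE), and 2 libraries stood on each side. The ages came from different pregnancies, so a difference with age cannot be told apart from a difference between litters. In condensate-like cells 6 of the 10 factors passed, where 11.9% of all genes tested did. Sox18 rose by 3.31 ± 0.23 (adjusted p = 6.49e-09), Alx4 by 3.36 ± 0.40 (adjusted p = 7.21e-06) and Trps1 by 1.80 ± 0.13 (adjusted p = 7.61e-09). The Sox18 value was 4.56 without E14.5 WT replicate 1, 2.66 without E14.5 WT replicate 2 and 2.41 at a coarser clustering, and Alx4 was at 2.52 in the last, all past the threshold. Trps1 stood at 141 and 117 CPM in WT and 105 and 130 CPM in KO at E14.5, and at 468 and 446 CPM in WT and 476 and 487 CPM in KO at E16.5.

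Tbx18 fell by 1.81 ± 0.17 on the log2 scale (adjusted p = 2.72e-07), from 273 and 172 CPM in WT and 180 and 156 CPM in KO to 63.1 and 66.0 CPM in WT and 54.2 and 41.8 CPM in KO, with no overlap. Foxd1 fell by 0.82 ± 0.16 (adjusted p = 0.00143) and Twist2 by 0.44 ± 0.10 (adjusted p = 0.0074). The call for Foxd1 was lost without E14.5 WT replicate 1 (-0.55, adjusted p = 0.10). The call for Twist2 was lost without E16.5 WT replicate 1 (-0.38, adjusted p = 0.11) and at the coarser clustering (-0.21, adjusted p = 0.33), where Foxd1 was at -1.57 and Tbx18 at -2.46.

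Sox2 (-0.06 ± 0.15, adjusted p = 0.874), Twist1 (0.08 ± 0.11), Tbx15 (0.11 ± 0.22) and En1 (0.76 ± 0.34, adjusted p = 0.17) did not pass. The class was made of different clusters at the 2 ages, and the Hes5 and Bmp3-led cells formed a cluster only at E16.5. Against the Bmp4 and Edn3-led cluster alone, the E14.5 condensate-like cells still stood lower in Sox18, Alx4 and Trps1 and higher in Tbx18, while Twist2 in that cluster, at 1372 to 1722 CPM, overlapped the E14.5 range of 1314 to 1625 CPM and Foxd1, at 69.3 to 107 CPM, reached into its E14.5 range of 102.3 to 154 CPM. At the coarser clustering Sox2 was lower at E16.5 (-0.86, adjusted p = 0.0043).

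In fibroblast-like cells 5 of the 10 factors rose with age in WT and none fell, where 38.9% of genes tested changed in either direction and 19% rose. Sox18 rose by 4.73 ± 0.31 (adjusted p = 1.54e-05), from 0.512 and 0.245 CPM to 8.94 and 8.20 CPM, which is still a small part of its condensate-like level. No E14.5 WT cluster of the class held more than 5 Sox18 UMIs. At E16.5 the Mxd3-led cluster led in WT, at 28.7 and 26.1 CPM. The Lig1, Meox2 and Cenpa-led clusters followed at 7.19 to 15.7 CPM. The Ctsh, Lmcd1, C1qtnf3, Agtr2, Hist1h2ap and Mfap5-led clusters, at 0.571 to 5.57 CPM, overlapped the IFE-like level given below. Erythroid-like cells, also given below, stood above the class as a whole. The part of free RNA in these levels was not tested. Trps1 rose by 2.54 ± 0.13 (adjusted p = 5.31e-06), from 23.7 and 20.4 CPM to 116 and 111 CPM. The KO libraries stood at 17.2 and 12.95 CPM and then 117 and 112 CPM, so the E16.5 ranges of the genotypes overlapped. The Sox18 value was 4.01 and the Trps1 value 1.56 without the clusters led by cell-cycle genes, and the Trps1 value was 3.37 without the Tnmd and Adh1-led clusters, all past the threshold.

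The other 3 rises were smaller, with 0.70 ± 0.09 for Twist2 (adjusted p = 0.000386), 0.56 ± 0.11 for En1 (adjusted p = 0.0045) and 0.42 ± 0.06 for Twist1 (adjusted p = 0.00114). Foxd1 (0.13 ± 0.19), Tbx18, Tbx15, Sox2 and Alx4 (0.76 ± 0.44, adjusted p = 0.204) did not pass. The value for Foxd1 turned on which clusters were counted as fibroblast-like: without the clusters led by cell-cycle genes it was -1.42 (adjusted p = 0.0036), and without the Tnmd and Adh1-led clusters of E14.5 it was 1.85 (adjusted p = 5.2e-05). Without those clusters Twist1 no longer passed (0.14, adjusted p = 0.082) and Alx4 did (1.12, adjusted p = 0.047). Without E14.5 WT replicate 1, Sox2 passed (1.92, adjusted p = 0.02), at levels that could not be told from background.

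In the Stmn2 and Crabp1-led cells 8 factors had enough UMIs to be tested, and Sox2 and Alx4 did not. Of these, 4 rose with age in WT, where 17.1% of genes changed and 8.12% rose. They were Sox18 (3.82 ± 0.39, adjusted p = 1.94e-05), Trps1 (3.40 ± 0.16, adjusted p = 3.39e-08), Foxd1 (2.57 ± 0.56, adjusted p = 0.00642) and Twist2 (0.39 ± 0.10, adjusted p = 0.0135). Trps1 in these cells stood at 29.97 to 47.0 CPM at E14.5 and 352 to 424 CPM at E16.5. In the E14.5 WT libraries these cells had 3 and 3 Sox18 UMIs and 4 and 3 Foxd1 UMIs, so both folds are imprecise. The Sox18 value was 4.78 without integration, 2.57 at the coarser clustering and 3.10 without the highest doublet scores, all past the threshold, and the Foxd1 value was 3.85 without integration. The call for Foxd1 was lost at the coarser clustering (-0.31, adjusted p = 0.64), without E14.5 WT replicate 2 (2.09, adjusted p = 0.057) and without E16.5 WT replicate 1 (2.05, adjusted p = 0.13), and that for Twist2 without either E16.5 WT library (adjusted p = 0.083 and 0.087). Sox18 and Trps1 thus rose in all 3 dermal classes. Foxd1 was called lower in condensate-like cells and higher in Stmn2 and Crabp1-led cells, but neither call held in every alternative. The difference between classes was not tested.

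**Figure D4:**
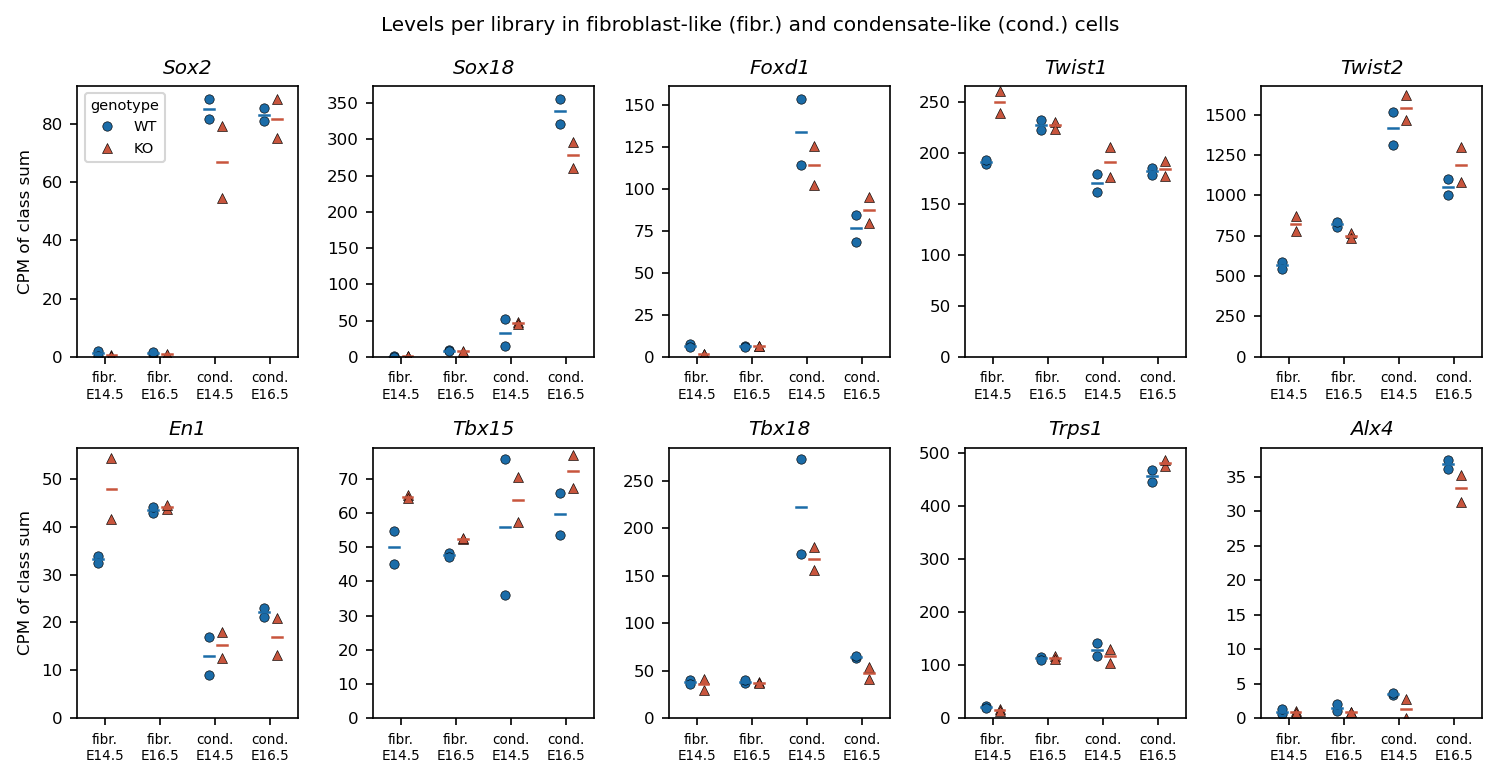
Level (CPM) of each factor in each library in fibroblast-like and condensate-like cells at E14.5 and E16.5; circles are WT, triangles are KO, and bars are group means of 2 libraries. In condensate-like cells Sox18, Trps1 and Alx4 are higher and Tbx18 is lower at E16.5 in all 4 libraries.

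The comparison of KO with WT asked whether loss of an epidermal factor was accompanied by a different state of the dermis below it. In E14.5 fibroblast-like cells 6 of the 10 factors differed, where 6.61% of all genes tested did, and DESeq2 also gave 6. With the E14.5 libraries alone 1 passed, and without the clusters led by cell-cycle genes 3 did. Fewer of all genes passed in these settings as well, as given below. Over 19 alternatives the call for Trps1 was lost in 11 with the same sign and in 1 with the opposite sign, and it was lost in 10 for En1, 8 for Tbx15, 3 for Twist1, 2 for Twist2 and 1 for Foxd1. Of the 6, 4 rose and 2 fell in KO, where 3.17% and 3.44% of genes did. Twist2 was at 591 and 544 CPM in WT and 778 and 873 CPM in KO, and it rose by 0.53 ± 0.09 (adjusted p = 0.0119). Twist1 was at 189 and 193 CPM in WT and 240 and 261 CPM in KO (0.38 ± 0.06, adjusted p = 0.0129). The groups of 2 libraries did not overlap for either Twist gene.

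En1 was at 33.9 and 32.5 CPM in WT and 41.7 and 54.3 CPM in KO (0.52 ± 0.11, adjusted p = 0.029), and Tbx15 at 45.2 and 54.7 CPM in WT and 65.3 and 64.3 CPM in KO (0.37 ± 0.07, adjusted p = 0.0202). The other called factors, Foxd1 and Trps1, were lower in KO. Foxd1 was at 7.73 and 5.57 CPM in WT and 1.55 and 1.93 CPM in KO, and it fell by 1.93 ± 0.22 on the log2 scale (adjusted p = 0.00368). It fell by 3.30 without the clusters led by cell-cycle genes, whereas without the Tnmd and Adh1-led clusters the value was -0.22 and did not pass (adjusted p = 0.65). Trps1 fell by 0.56 ± 0.14 (adjusted p = 0.0483), from 23.7 and 20.4 CPM to 17.2 and 12.95 CPM. Without the clusters led by cell-cycle genes its value was -1.17 and did not pass (adjusted p = 0.13), and without the Tnmd and Adh1-led clusters it was 0.18 (adjusted p = 0.30).

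Sox2 (-1.32 ± 0.70, adjusted p = 0.305), Sox18 (1.07 ± 0.41, adjusted p = 0.154), Tbx18 (-0.09 ± 0.14, adjusted p = 0.74) and Alx4 (-0.07 ± 0.46, adjusted p = 0.953) did not pass. At E16.5 none of the 10 factors passed in fibroblast-like cells in edgeR, where 0.925% of genes did. None had an unadjusted p under 0.05 and DESeq2 called none. The 4 libraries were then close, with Twist2 at 806 and 835 CPM in WT and 768 and 735 CPM in KO (-0.12 ± 0.09), and Foxd1 at 6.69 and 6.10 CPM in WT and 6.15 and 6.66 CPM in KO.

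The genotype effect itself differed between the ages for 2 of the 10 factors, where 3.26% of genes did. For Foxd1 the E16.5 effect minus the E14.5 effect was 1.93 ± 0.29 (adjusted p = 0.0148), and for Twist2 it was -0.65 ± 0.12 (adjusted p = 0.0277). In total 6 factors had an unadjusted p under 0.05 for this term, and DESeq2 called 4, counts for which no share of all genes is given. The call for Foxd1 was lost without E16.5 KO replicate 2, WT replicate 1 or WT replicate 2 (1.86 to 2.02, adjusted p = 0.063 to 0.068), and that for Twist2 without E14.5 KO replicate 2 or any 1 of the E16.5 libraries (-0.69 to -0.57, adjusted p = 0.072 to 0.12). Without E14.5 KO replicate 1, En1 (-0.67, adjusted p = 0.014), Trps1 (0.79, adjusted p = 0.035) and Twist1 (-0.43, adjusted p = 0.047) passed as well.

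**Figure D5:**
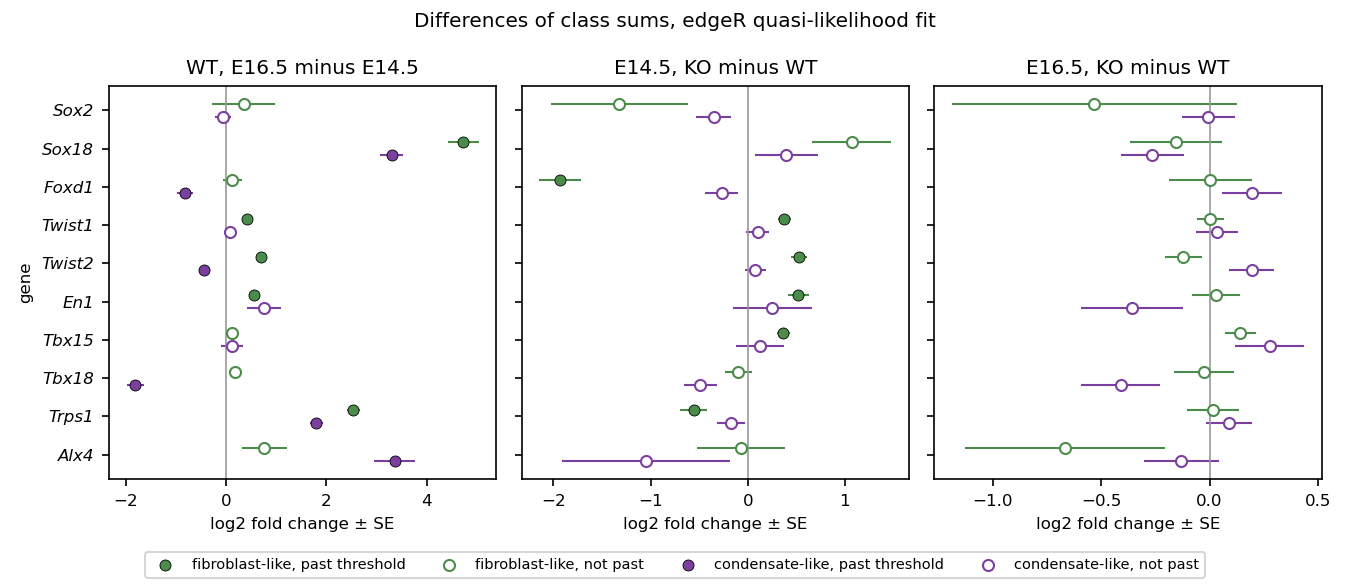
Log2 fold change ± SE of each factor, from edgeR, in fibroblast-like and condensate-like cells for KO against WT at each age and for WT E16.5 against E14.5; filled points passed an adjusted p of 0.05. Genotype differences are past the threshold in E14.5 fibroblast-like cells (6 of 10) and in none of the other genotype comparisons shown.

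The makeup of the fibroblast-like class also differed between the genotypes at E14.5, and so did levels inside its clusters. The C1qtnf3 and Tnmd-led cluster made up 14.2% and 17.1% of the fibroblast-like cells in WT and 7.9% and 2.2% in KO. It gave 60.2% and 70.9% of the Foxd1 UMIs of the class in WT and 16.7% and 12.5% in KO. Within the cluster Foxd1 was at 37.3 and 24.6 CPM in WT and 3.92 and 12.6 CPM in KO. In the Thbs4-led cluster Foxd1 was at 24.9 and 4.38 CPM in WT and had no UMI in KO, and the cluster gave 21.5% and 6.04% of the Foxd1 UMIs of the class in WT. In KO the larger part came from clusters led by Hist1h2ap (38.1% and 23.2%) and Cenpf (26.2% and 41.1%), genes of dividing cells. Trps1 in the C1qtnf3 and Tnmd-led cluster was at 98.9 and 57.1 CPM in WT and 65.0 and 16.2 CPM in KO.

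Twist1 and Twist2 were low in the same cluster, at 105 and 115 CPM over all its cells, while Twist2 ranged up to 1135 CPM over the fibroblast-like clusters of E14.5. Within the cluster Twist2 was at 97.2 and 101 CPM in WT and 170 and 171 CPM in KO. Within the Thbs4-led cluster it was at 253 and 216 CPM in WT and 449 and 406 CPM in KO, so KO was higher inside both. The genotypes overlapped in the Mfap4-led cluster (298 and 386 CPM in WT, 452 and 373 CPM in KO). They also overlapped in the 1110032F04Rik-led cluster (651 and 695 CPM in WT, 697 and 684 CPM in KO). In every other fibroblast-like cluster of E14.5 each KO library stood above each WT library. Without the Tnmd and Adh1-led clusters, 1 of the 10 factors still passed, Twist2 (0.27, adjusted p = 0.049), where 4.71% of all genes did. Beside the values for Foxd1 and Trps1 given above, those of the others were 0.20 for Twist1 (adjusted p = 0.084), 0.41 for En1 (adjusted p = 0.066) and 0.28 for Tbx15 (adjusted p = 0.15). Under this choice the interaction was 0.22 for Foxd1 (adjusted p = 0.74) and -0.40 for Twist2 (adjusted p = 0.053). Without the clusters led by cell-cycle genes the interaction for Foxd1 was 3.43 (adjusted p = 0.020).

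Without KO replicate 2, Foxd1 passed (-2.09, adjusted p = 0.02) and the other 5 did not, with Twist1 at 0.33 (adjusted p = 0.077), Twist2 at 0.45 (adjusted p = 0.071), En1 at 0.33 (adjusted p = 0.095), Tbx15 at 0.39 (adjusted p = 0.073) and Trps1 at -0.36 (adjusted p = 0.21). Without WT replicate 2, Sox2 passed as well (-2.15, adjusted p = 0.042), again at levels that could not be told from background. The lone library left on a side is assumed to vary as the other groups do.

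Further measures moved with genotype in the same cells. Summed cell-cycle genes were at 1144 to 1157 CPM in WT and 1428 to 1520 CPM in KO at E14.5, and at 1325 to 1355 CPM in WT and 1130 to 1145 CPM in KO at E16.5. Summed fibroblast markers were at 17158 to 17220 CPM in WT and 19524 to 19852 CPM in KO at E14.5, and summed keratinocyte genes at 79 to 92 CPM and 130 to 224 CPM. Of 3 Hox genes chosen after their values were seen, Hoxc4, expressed from the neck backwards, was at 34.8 and 46.3 CPM in WT and 98.3 and 72.5 CPM in KO at E14.5, and at 47.6 and 36.5 CPM in WT and 55.01 and 64.4 CPM in KO at E16.5. Hoxc8 was at 81.7 and 75.2 CPM in WT and 45.8 and 115 CPM in KO at E14.5, and at 112 and 115 CPM in WT and 107 and 101 CPM in KO at E16.5. Hoxc10, of the more posterior body, was at 1.37 and 0.15 CPM in WT and 0 and 13.3 CPM in KO at E14.5, so that KO replicate 2 stood apart, and at 7.92 and 19.3 CPM in WT and 1.72 and 0.83 CPM in KO at E16.5. The part of body position, makeup or cell cycle in the genotype differences was not tested.

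In condensate-like cells no factor differed between KO and WT in edgeR at E14.5, where 0.0595% of genes did, or at E16.5, where 0.615% did. DESeq2 called none of them either. Tbx18 was the 1 factor with an unadjusted p under 0.05 at each age, at -0.49 ± 0.17 at E14.5 (adjusted p = 0.623) and -0.41 ± 0.18 at E16.5 (adjusted p = 0.798). Without E14.5 WT replicate 2 the E14.5 value for Tbx18 passed (-0.81, adjusted p = 0.0071), and it also passed with no filter on low counts (-0.48, adjusted p = 0.034). The genotype effect differed between ages for none, where 0.179% of genes did, with 1 factor (Foxd1) at an unadjusted p under 0.05 and none called by DESeq2. Without E14.5 WT replicate 1, Sox18 passed this term (-1.91, adjusted p = 0.015). In simulated data on these libraries a change of 2-fold was recovered at E14.5 for 50% of changed genes in condensate-like cells (9817 genes simulated) and 72% in fibroblast-like cells (14126 genes). A change of 1.5-fold was recovered for 10% of changed genes in condensate-like cells and 56% in fibroblast-like cells. The changed genes were drawn at random from all genes simulated, so these rates need not hold for a factor at its own level. For genes drawn this way, changes of these sizes were missed more often in condensate-like cells. Most of those of 1.5-fold were missed there.

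In the Stmn2 and Crabp1-led cells none of the 8 tested factors differed by genotype in edgeR or DESeq2, where 0.151% of genes did at E14.5, 0.539% at E16.5 and 0.359% for the difference between the ages. En1 alone had an unadjusted p under 0.05, at E14.5. Its levels were 36.7 and 26.9 CPM in WT and 46.3 and 44.7 CPM in KO, and it passed without E14.5 WT replicate 1 (0.79, adjusted p = 0.031).

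The other 11 classes allowed 47 tests of a factor in a class. None passed for KO against WT at E14.5 in edgeR, where 0.27% of genes over all these classes did. There were 8 with an unadjusted p under 0.05, and DESeq2 called none. At E16.5 there were 3, all lower in KO, where 0.81% of all tests were lower, and DESeq2 called 1. Of all genes, 2.64% were lower in macrophage-like cells and 0.112% in Schwann-like cells. Twist2 in macrophage-like cells was at 73.9 and 60.2 CPM in WT and 32.7 and 25.1 CPM in KO (-1.26 ± 0.18, adjusted p = 0.00129), and Twist1 at 25.2 and 14.7 CPM in WT and 5.73 and 4.79 CPM in KO (-1.99 ± 0.36, adjusted p = 0.00646).

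Summed fibroblast markers in the same macrophage-like cells were at 2026 to 2435 CPM in WT and 1006 to 1110 CPM in KO. At E14.5 the marker sums had the other order, at 607 to 678 CPM in WT and 938 to 1269 CPM in KO, and so did Twist2, at 35.7 and 36.5 CPM in WT and 61.8 and 73.4 CPM in KO, and Twist1, at 6.12 and 10.6 CPM in WT and 19.4 and 15.5 CPM in KO. The part of fibroblast RNA in these values was not tested. Twist2 in Schwann-like cells was at 123 and 82.9 CPM in WT and 54.7 and 50.04 CPM in KO (-1.03 ± 0.20, adjusted p = 0.0493), beside fibroblast marker sums of 9907 to 10882 CPM in WT and 8817 to 9681 CPM in KO. When the cells with the highest doublet scores were left out, none of the 3 passed, with Twist2 in macrophage-like cells at -0.37 (adjusted p = 0.48), Twist1 at -1.50 (adjusted p = 0.12) and Twist2 in Schwann-like cells at -1.16 (adjusted p = 0.62). With the E16.5 libraries alone 2 of the 3 passed. Only the call for Twist2 in macrophage-like cells held whichever library was left out. Without E16.5 WT replicate 1 the Twist1 value was -1.47 (adjusted p = 0.12) and the Schwann-like Twist2 value -0.65 (adjusted p = 0.91).

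With age in WT, 15 of these 47 values rose, where 7.51% of tests over all genes did, and DESeq2 called 8. Sox18 rose in endothelial-like cells (1.86) and lymphatic endothelial-like cells (2.68), where it is known to act, and the endothelial-like value was 3.02 without E14.5 WT replicate 1. It also passed in IFE-like and erythroid-like cells, where the E14.5 WT libraries held too few Sox18 UMIs for a fold to be given. IFE-like cells had 0 and 1 Sox18 UMIs in WT at E14.5 and were at 4.10 and 1.89 CPM at E16.5. Erythroid-like cells had no Sox18 UMI in WT at E14.5, which allows up to 4.24 and 3.60 CPM, and were at 18.2 and 18.6 CPM at E16.5. Trps1 rose in 6 classes, by 0.84 in IFE-like, 0.98 in macrophage-like, 1.11 in endothelial-like, 1.39 in muscle-like, 1.43 in mast cell-like and 3.61 in erythroid-like cells, the last from 5 and 3 UMIs in the E14.5 WT libraries. Twist2 rose in Schwann-like, macrophage-like and mural-like cells by 0.72 to 0.95, Twist1 in macrophage-like cells by 1.35 and Tbx15 in muscle-like cells by 1.11. Of the 15, 5 passed without each library in turn: Sox18 in IFE-like, endothelial-like and lymphatic endothelial-like cells, and Trps1 in erythroid-like and muscle-like cells. Without the highest doublet scores 9 classes with 34 tests remained, and 6 of the 13 calls that could be tested again passed. Lymphatic endothelial-like cells were then too few to test. Twist2 was then at -0.71 in Schwann-like, -0.28 in macrophage-like and 0.08 in mural-like cells, and Twist1 at 0.47 in macrophage-like cells. Sox18 and Trps1 also rose in the dermal classes, and the part of free RNA from those cells in the rises elsewhere was not tested.

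The genes most like each factor were found by Pearson's r of log2(CPM + 1) over 111 sums, each of 1 class in 1 library, over 15 named classes and 10446 genes. The points share libraries and differ in depth, and r is given as a description. Twist1 was most like Cdo1 (0.94), Ctsk (0.93) and Prrx1 (0.92), and En1 like Cd248 (0.91), Ddr2 (0.87) and Ctsk (0.85). Twist2 was most like Pth1r (0.93), Tmem132c (0.93) and the fibroblast naming marker Lum (0.92). Tbx15 and Tbx18 shared their 3 nearest genes, Prrx1 (0.86 and 0.88), Nfatc4 (0.85 and 0.87) and Col6a2 (0.85 and 0.86). Among the condensate factors, Foxd1 was most like Glis1 (0.86), Hapln3 (0.86) and Cpne5 (0.82), Sox2 like Vat1l (0.83), Dclk1 (0.77) and Ngfr (0.75), and Sox18 like Dysf (0.80), Eva1a (0.79) and Hoxd9 (0.78). Alx4 was most like Bmp3 (0.81), Ibsp (0.78) and Inhba (0.74), and Trps1 like Wif1 (0.68), Ptch1 (0.67) and Ism1 (0.65), of which Bmp3, Inhba and Ptch1 had served to name the condensate-like cells. Between the factors themselves r ran from -0.01 for En1 with Sox18 to 0.89 for En1 with Twist1.

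Of 72 other dermal transcription factors, 67 were tested in fibroblast-like cells. At E14.5 4 rose and 12 fell in KO against WT, where 3.17% and 3.44% of all genes did, with a median log2 fold change of -0.28, while the median over all genes lay within 0.025 of 0. Values without KO replicate 2 or without the Tnmd and Adh1-led clusters are not given for the 72 factors. The 5 that fell most are known from craniofacial and other mesenchyme and were at 0.93 CPM or less in KO. Dlx5 was at 15.3 and 13.9 CPM in WT and 0.89 and 0.45 CPM in KO (-4.46 ± 0.26, adjusted p = 0.00023), Msx1 at 8.37 and 17.4 CPM in WT and 0.48 and 0.93 CPM in KO (-4.18 ± 0.39, adjusted p = 0.00182), and Foxc2 at 4.95 and 3.55 CPM in WT and 0.15 and 0.17 CPM in KO (-4.69 ± 0.47, adjusted p = 0.00248). Barx1 was at 3.41 and 4.04 CPM in WT and 0.111 and 0.207 CPM in KO (-4.51 ± 0.45, adjusted p = 0.00368), and Foxc1 at 2.30 and 4.62 CPM in WT and 0.222 and 0.138 CPM in KO (-4.25 ± 0.70, adjusted p = 0.012). At E16.5 none of the 67 passed in edgeR, with 7 at an unadjusted p under 0.05 and 1 called by DESeq2, and Dlx5 was then at 0.25 to 0.48 CPM in all 4 libraries. With age in WT 14 rose and 37 fell, where 38.9% of all genes changed and 19% rose, with a median of -0.69.

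In condensate-like cells 43 of the 72 were tested, and 10 rose and 2 fell with age in WT, where 11.9% of all genes changed. None passed for genotype in edgeR or DESeq2 at either age, with 4 at E14.5 and 3 at E16.5 at an unadjusted p under 0.05. Hey1, a target of Notch signalling, rose by 2.44 ± 0.25 (adjusted p = 1.1e-06), and Heyl and Hes1, of the same pathway, rose by 1.96 and 1.87. Ebf1 rose by 1.55 ± 0.14 (adjusted p = 2.37e-07) and Hic1 fell by 3.31 ± 0.49 (adjusted p = 8.62e-05). In the P0 epidermis, which holds little dermis, 9 of the 10 factors were at 2.67 CPM or less in every library. Trps1 was the exception, at 26.1 and 20.3 CPM in WT and 27.1 and 33.3 CPM in KO, and at 3.66 CPM in the older-chemistry library.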

How the data were processed

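Single-cell suspensions were run on the 10x Chromium 3′ platform. Per the submitters' processing notes, the authors made the deposited UMI counts with Cell Ranger 1.3.1 on mm10, and Seurat followed. The study's methods name a later Cell Ranger version, and which of them made the deposited counts was not settled. The deposited matrices hold whole-number counts of UMIs per gene and cell, not normalized. How reads in overlapping genes were divided is not given in the sources used here.

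Cells were kept as in the study's methods (600 to 4800 genes in embryonic libraries, 900 to 7700 at P0, at most 10% mitochondrial UMIs, genes in at least 6 cells). Each age was integrated over its 4 libraries and clustered in Seurat 5.3.0 (3000 variable genes, 30 components, 20 neighbours, resolution 1), without the 10 factors and the 72 other listed factors, which gave 30 clusters at E14.5 and 35 at E16.5. A cluster took the name of the best marker list with a mean scaled level of at least 0.5 and at least 40% of its markers detected. A cluster led by fat genes and the Stmn2 and Crabp1-led clusters were kept apart by hand after their leading genes were seen. Rebuilt names may differ from the study's. UMIs were summed per library and class, with at least 20 cells, and tested with edgeR 4.0.16 (quasi-likelihood, TMM scaling, filterByExpr, all 8 embryonic libraries in 1 fit), Benjamini-Hochberg adjusted over all genes at a threshold of 0.05. SE is the absolute log2 fold change over the square root of F. Shares of all genes are given for edgeR's adjusted p only, so counts at an unadjusted p or in DESeq2 stand without one. With 2 libraries a group, p-values measure the spread between littermates of an age, and age and pregnancy cannot be told apart. The test was tested on simulated data. DESeq2 1.42.0, RLE scaling, no filter, the libraries of 1 age alone, a replicate block, each library left out, resolution 0.5, no integration and removal of the highest Scrublet scores (scanpy 1.11.5; 1337 and 1911 cells) were the alternatives. Leaving out the 3 clusters with Tnmd or Adh1 among their leading genes or those led by cell-cycle genes, joining the Stmn2 and Crabp1-led clusters, and fitting these alone were added after seeing the data.

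The 10 factors and all gene lists were chosen with earlier results of these data known. Named genes were the 10 factors, the 3 genes most like each, up to 5 listed factors with the largest change past the threshold per dermal comparison (those with a group of libraries at 0 in that comparison are left unnamed), the genes that lead a cluster, Grhl3, and marker sums that moved with a group. Every level counts UMIs, so a share or floor (3 counts of the class total) covers counting error only. Doublets were not removed in the values given first. Proteins and the promoters of Sox18, Tbx15, Trps1 and Alx4 were not analysed here.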

Additional observations from a re-analysis of the deposited data

Results flagged for a closer look

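The effect of genotype differed between E14.5 and E16.5 for a pair of the 10 factors in fibroblast-like cells. The E16.5 difference minus the E14.5 difference was 1.93 on the log2 scale for Foxd1 and -0.65 for Twist2, tested as an interaction term in edgeR. Neither passed when the Tnmd and Adh1-led clusters of E14.5 were left out, as given above.

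Sox2 was high in small populations outside the dermal comparisons. In the Fabp7 and Olig1-led cells of E14.5 it was at 434.9 and 375.8 CPM in WT and at 116.7 and 262.2 CPM in KO, from 287, 20, 9 and 8 cells. That cluster held 75.6% of all Sox2 UMIs of E14.5 WT replicate 1. In the Merkel-like cells of E16.5 Sox2 was at 512.6 and 484.4 CPM in WT and at 375.1 and 596.2 CPM in KO, from 8 to 13 cells a library. With so few cells no comparison of genotypes was made in these populations.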

How the results depend on the processing

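With 2 libraries a group, the genotype calls are close to what these data can carry, and they depend on the choice of cells. Over all alternatives, 354 counts of calls stayed within 1.5 times the value given above and 103 moved further. Of the log2 fold changes of single factors, 1227 kept their direction and their side of the threshold, 52 lost the call, 18 gained one and 62 changed sign. Of the shares of cells with a UMI, 79 moved by more than the spread between libraries and 1 did not when cells were not thinned or when 2 or more UMIs were asked for, both of which change by construction how many cells count. Same-numbered libraries did not deviate together (r from -0.07 to -0.01), and the labels give the numbers no shared source, so the replicate block is given here only. Where 1 library was left out, the lone sample of its group is assumed to vary like the other groups. In simulated data a 2-fold change was recovered less often in condensate-like than in fibroblast-like cells, as given above.

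For all genes, KO against WT at E14.5 in fibroblast-like cells gave 950 calls, 1883 with no filter on low counts, 233 with the E14.5 libraries alone, 482 with the replicate block and 260 without the cell-cycle-led clusters. Of the 10 factors 6 passed, then 1 with the E14.5 libraries alone, 3 without the cell-cycle-led clusters and 1 without the Tnmd and Adh1-led clusters. At E16.5 the 133 calls became 545 with no filter, 294 with the E16.5 libraries alone, 86 with the block and 81 without the cell-cycle-led clusters. For the interaction the 469 calls became 1401 with no filter, 217 with the block and 81 without the cell-cycle-led clusters. Of the factors 2 passed it, then 4 in DESeq2, 5 with no filter, 1 with the Stmn2 and Crabp1-led clusters joined, 1 without the cell-cycle-led clusters and 0 without the Tnmd and Adh1-led clusters.

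In condensate-like cells the 6 calls of E14.5 became 62 with no filter and 13 with the block, and 1 factor, Tbx18, passed with no filter. The 62 calls of E16.5 became 27 in DESeq2, 145 with no filter and 108 with the E16.5 libraries alone. The 18 interaction calls became 65 with no filter and 31 with the block, and the 1201 age calls became 600 in DESeq2. In Stmn2 and Crabp1-led cells the 16 calls of E14.5 became 309 with no filter, 10 with the E14.5 libraries alone, 39 with the block and 10 without the highest doublet scores. The 57 calls of E16.5 became 191 with no filter and 153 with the E16.5 libraries alone, the 38 interaction calls 191 with no filter, and the 1806 age calls 972 in DESeq2. The other classes allowed 47 tests, and 107 with no filter, 45 without integration or at resolution 0.5 and 34 without the highest doublet scores, so these counts have different bases. At E14.5 0 passed, and 4 with no filter, 1 without integration and 1 at resolution 0.5. At E16.5 there were 3, and 1 in DESeq2, 6 with no filter and 0 without the highest doublet scores. With age there were 15, and 8 in DESeq2, 26 with no filter and 6 without the highest doublet scores. With the replicate block 11 of the 15 passed again.

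Signs that changed in fibroblast-like cells at E14.5 were those of Tbx18 without the cell-cycle-led clusters (0.0066) and of Trps1 (0.18) and Alx4 (0.090) without the Tnmd and Adh1-led clusters. At E16.5 they were those of Sox18 without the cell-cycle-led clusters (0.15), of Foxd1 with no filter (-0.0003) and at resolution 0.5 (-0.021), of Trps1 at resolution 0.5 (-0.049), and of Twist1 with no filter (-0.0005), at resolution 0.5 (-0.0061), without the cell-cycle-led clusters (-0.029) and without the Tnmd and Adh1-led clusters (0.0). With age they were those of Foxd1 (-1.42) and Alx4 (-0.52) without the cell-cycle-led clusters, of Foxd1 without the highest doublet scores (-0.051) and of Tbx15 without the Tnmd and Adh1-led clusters (-0.067). For the interaction they were those of Tbx18 without integration (-0.012) and without the cell-cycle-led clusters (-0.071) and of Trps1 without the Tnmd and Adh1-led clusters (-0.17). In condensate-like cells they were those of En1 at E14.5 at resolution 0.5 (-0.11), of Sox2 without integration at E16.5 (0.11) and with age (0.17), and of Twist2 for the interaction at resolution 0.5 (-0.045). The cause was not tested.

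With each library left out in turn, the counts of genes in fibroblast-like cells ran from 254 to 882 (E14.5), 19 to 160 (E16.5), 3281 to 5638 (age) and 37 to 715 (interaction), and those of the 10 factors from 1 to 6 (E14.5) and 0 to 5 (interaction). In condensate-like cells they ran from 4 to 52, 32 to 98, 735 to 1208 and 8 to 50 genes, with 0 to 1 factors at E14.5 and for the interaction. In Stmn2 and Crabp1-led cells they ran from 5 to 303, 16 to 114, 890 to 1991 and 12 to 155 genes, with 0 to 1 factors at E14.5 and 2 to 4 with age. In the other classes 1 to 3 of 50 to 54 values passed at E16.5 and 9 to 19 with age.

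Log2 fold changes whose sign turned when a library was left out were, in fibroblast-like cells at E14.5, those of Sox2 (-2.15 to 0.25), Tbx18 (-0.33 to 0.11) and Alx4 (-0.51 to 0.72). At E16.5 they were those of Foxd1 (-0.074 to 0.095), Twist1 (-0.045 to 0.053), Tbx18 (-0.077 to 0.024) and Trps1 (-0.035 to 0.068). With age they were those of Sox2 (-0.48 to 1.92) and Foxd1 (-0.14 to 0.42), and for the interaction those of Sox2 (-0.78 to 1.62) and Tbx18 (-0.14 to 0.31). In condensate-like cells at E14.5 they were those of Sox18 (-0.25 to 1.65), Foxd1 (-0.49 to 0.006), Twist1 (-0.008 to 0.23), En1 (-0.11 to 0.73), Tbx15 (-0.29 to 0.71) and Trps1 (-0.35 to 0.010). At E16.5 they were those of Sox2 (-0.14 to 0.12) and Twist1 (-0.015 to 0.081), and with age those of Sox2 (-0.15 to 0.041) and Tbx15 (-0.31 to 0.69). For the interaction they were those of Twist1 (-0.20 to 0.042), Twist2 (-0.031 to 0.25), Tbx15 (-0.44 to 0.57) and Tbx18 (-0.34 to 0.40).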
